A study of Mus musculus with 4 samples.

Results

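The genes described here belong to the S100 family of small calcium-binding proteins, measured in white fat around the epididymis of male C57BL/6 mice aged 3 to 4 months. The groups were control mice and mice given 3 nmol/hr of CL 316243, which activates β3-adrenergic receptors and thereby lipolysis, for 1, 3 or 6 days, with pooled RNA on 1 Affymetrix array per group. The sources used here do not give the pool size, the route of dosing or what control mice received. Of 9 listed S100 genes, 8 had a probe set whose annotation gives a single symbol (S100a8, S100a9, S100a4, S100a6, S100a10, S100a1, S100a13 and S100b), out of 8251 genes measured this way, and S100a11 was dropped because its probe set carries several symbols. The 8 genes are covered by 14 probe sets. They were chosen by family name, with the day 1 intensities of S100a8 and S100a9 already known, so their counts and changes against control are a description and support nothing further. As each group has 1 array, no difference could be tested and replicate error is unknown.

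Most S100 proteins are dimers that change shape when calcium enters the cell and then bind other proteins. S100a8 and S100a9 form the heterodimer calprotectin, which fills the cytoplasm of neutrophils and early monocytes, withholds zinc and manganese from microbes, and once released signals through the endotoxin receptor Tlr4 and through Ager, the receptor for advanced glycation end products. S100a4 and S100a6 are abundant in fibroblasts and motile cells, S100a10 and S100a11 bind annexins, S100a13 takes part in the export of the growth factor Fgf1 and the cytokine Il1a, S100a1 regulates calcium cycling in muscle, and S100b is known from glia, Schwann cells and fat cells. Apart from S100b, the measured members lie on mouse chromosome 3.

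The promoters of the 3 members at least 2-fold higher than control at day 1 (S100a8, S100a9 and S100a4) are shown because these genes lie near each other and were high on the same array. Each sequence is the 250 bases before the RefSeq start of the gene in build GRCm38.p6, 5′ to 3′ on the gene's strand, and capitals mark matches to the motifs searched. They lie at chr3:90668821-90669070 (plus strand), chr3:90695722-90695971 (minus strand) and chr3:90603520-90603769 (plus strand).
S100a8: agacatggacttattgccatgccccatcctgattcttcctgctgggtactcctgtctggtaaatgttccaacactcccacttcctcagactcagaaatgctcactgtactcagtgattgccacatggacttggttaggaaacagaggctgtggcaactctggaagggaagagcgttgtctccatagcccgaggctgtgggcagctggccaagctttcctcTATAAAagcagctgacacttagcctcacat
S100a9: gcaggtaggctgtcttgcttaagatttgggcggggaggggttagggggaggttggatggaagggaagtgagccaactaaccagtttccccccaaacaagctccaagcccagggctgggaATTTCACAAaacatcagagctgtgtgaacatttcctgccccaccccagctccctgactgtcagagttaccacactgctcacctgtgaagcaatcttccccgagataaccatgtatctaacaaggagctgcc
S100a4: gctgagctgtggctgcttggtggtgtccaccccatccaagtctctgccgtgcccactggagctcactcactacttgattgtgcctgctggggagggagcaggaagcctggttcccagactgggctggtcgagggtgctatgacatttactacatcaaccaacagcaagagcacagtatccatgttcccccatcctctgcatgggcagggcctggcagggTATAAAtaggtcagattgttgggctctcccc
The motifs, searched on both strands, were the C/EBP motif TTNNGNAAT, the AP-1 motif TGANTCA, the STAT motif TTCNNNGAA, the cAMP response element TGACGTNA and the TATA box TATAAA. The letters of the C/EBP and STAT motifs can overlap, although no matches overlapped in these windows. S100a8 held a TATA box from base -30 to base -25 and S100a4 one from -31 to -26, counted from the start, and 12.4% of the 32851 RefSeq promoter windows of this length hold these letters. S100a9 held a C/EBP match on the opposite strand from -131 to -123, as did 10.2% of all windows in some position. The AP-1, STAT and cAMP motifs, found in 6.75%, 7.02% and 2.52% of all windows, had 0 matches in these 3 windows. A match is a description of the letters and not evidence of a bound site.

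S100a8 and S100a9 were bright on the day 1 array and far dimmer on the day 3 array. S100a8 had an intensity of 414 in control fat, 40305 at day 1, 1494 at day 3 and 643 at day 6. S100a9 had 119 in control fat, 26727 at day 1, 540 at day 3 and 13 at day 6. The day 1 array stands far above the other 3 for both genes, and the control and day 6 values of S100a9 lie below the floor of 173 intensity units to which low values were raised before ratios were taken. At day 1 S100a8 was 97.3-fold higher than control (log2 change 6.60) and S100a9 at least 154-fold higher (log2 change 7.27 after the floor). With the floor used here they were the 2 highest log2 changes of 8251 genes at day 1. Their order depends on that floor, since a floor at the 60th percentile gave 5.64 for S100a9 and 6.23 for S100a8. At day 3 S100a8 was 3.61-fold and S100a9 at least 3.12-fold higher than control, which put them at ranks 54 and 73. When the floor was set at the 60th percentile instead, the day 3 value of S100a9 lay just above it and the log2 change was 0.01. At day 6 S100a8 was 1.55-fold higher than control, less than the 1.60-fold to which 3 errors between probe sets of one gene amount, and S100a9 was below the floor on both arrays. In RNA of whole tissue, more cells of a type and more RNA per cell cannot be told apart.

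**Figure D1:**
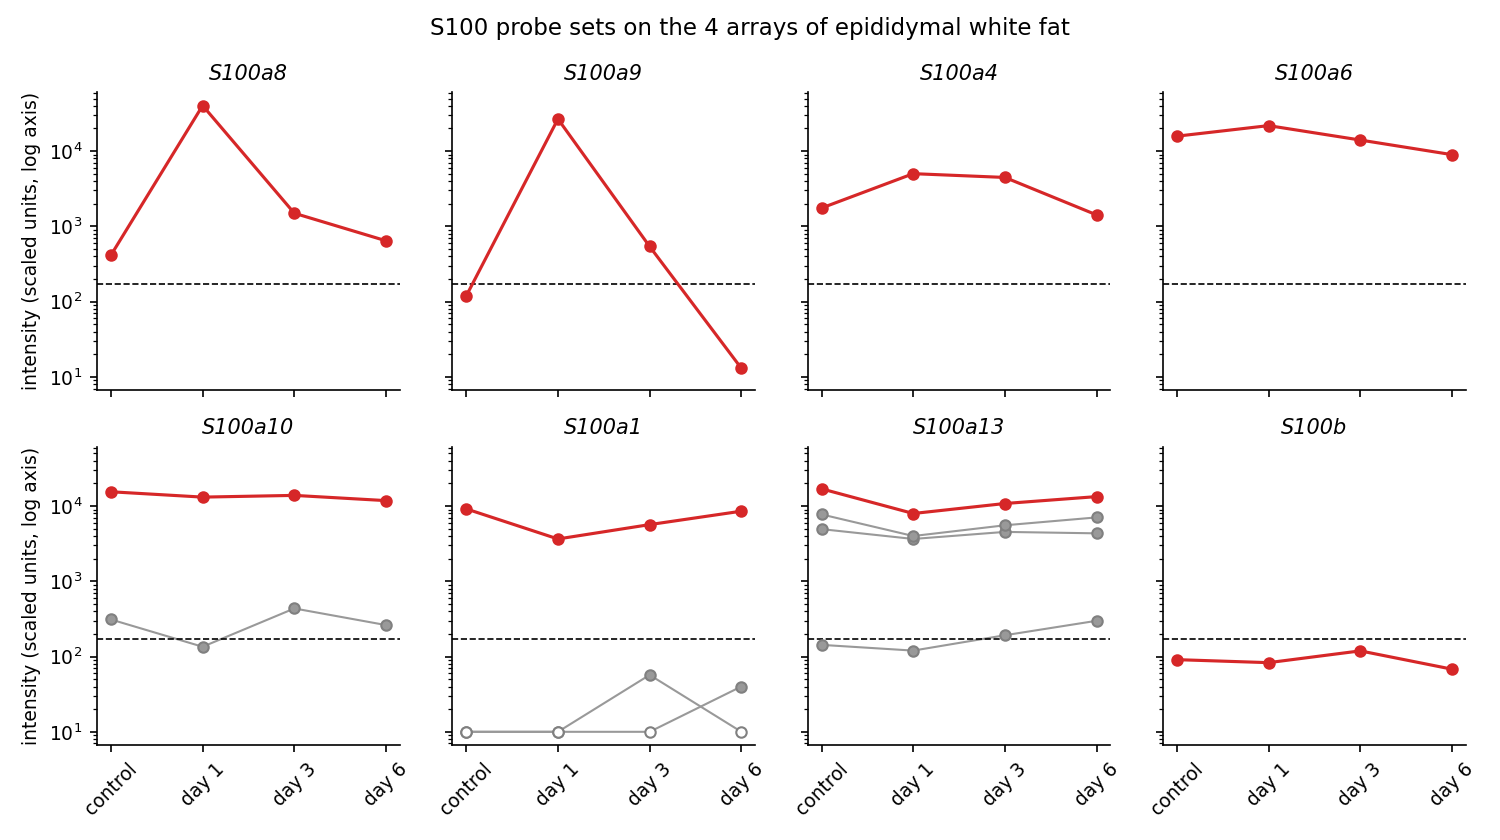
Intensity of every S100 probe set (vertical log axis, scaled units) on the control, day 1, day 3 and day 6 arrays, 1 array per group. Red marks the probe set that stands for the gene, grey the others, the dashed line the floor of 173, and open circles at the bottom values under the drawn range. S100a8 reached 40305 and S100a9 26727 at day 1, while the S100b probe set stayed below the floor on the 4 arrays.

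The signal of the calprotectin genes was lower again after the first day. At day 3 S100a8 was 27.0-fold lower and S100a9 49.5-fold lower than at day 1, ranks 9 and 2 from the bottom among all genes. These were the 2 members at least 2-fold lower at day 3 than at day 1, where 4.79% of all genes were lower and 4.41% higher by that measure, and 0 members were higher. Between day 6 and day 3, S100a8 was a further 2.32-fold lower and S100a9 at least 3.12-fold lower. Over both steps, day 6 against day 1, S100a8 was 62.7-fold lower and S100a9 at least 154-fold lower. S100a8 kept a value above the floor on each array, while S100a9 did so on 2.

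S100a4, which binds non-muscle myosin and is carried by fibroblasts and by some myeloid cells, stayed high for longer. Its intensity was 1752 in control fat, 5016 at day 1, 4467 at day 3 and 1419 at day 6. The day 1 and day 3 arrays were high and lay close together, and the control and day 6 arrays were low. Against control S100a4 was 2.86-fold higher at day 1 (log2 change 1.52) and 2.55-fold higher at day 3 (1.35), and 1.23-fold lower at day 6. Between days 3 and 1 it differed by a log2 change of -0.17, less than the error of 0.24 between probe sets for that comparison. Between days 6 and 3 it was 3.15-fold lower, a rank of 37 from the bottom among all genes, and at day 6 it was 3.53-fold lower than at day 1. The difference in timing from S100a8 and S100a9 rests on 1 array per day.

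S100a6, also named calcyclin, differed less between the arrays. It had 15792 in control fat, 21817 at day 1, 14035 at day 3 and 8974 at day 6, so that day 1 was the highest of the 4 arrays and day 6 the lowest. It was 1.38-fold higher at day 1 and 1.76-fold lower at day 6 than control, neither past 2-fold, and 2.43-fold lower at day 6 than at day 1. Cacybp, which takes its name from binding calcyclin, had 958 in control fat, 1239 at day 1, 922 at day 3 and 912 at day 6.

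S100a10, the partner of annexin A2 and a protein that binds plasminogen at the cell surface, varied least among the members above the floor. Its brighter probe set had 15490 in control fat, 13155 at day 1, 13867 at day 3 and 11817 at day 6, with log2 changes of -0.24, -0.16 and -0.39 against control. Its other probe set was dim, at 311, 135, 436 and 262 in the same order, and differed in sign from the bright one at day 3.

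S100a1 and S100a13 were the members at least 2-fold lower than control at day 1. They are next to each other on opposite strands and start back to back, so that their windows before the start overlap, at chr3:90514331-90514580 (minus strand) for S100a1 and chr3:90514185-90514434 (plus strand) for S100a13 in GRCm38.p6. The S100a1 probe set had 9175 in control fat, 3654 at day 1, 5671 at day 3 and 8552 at day 6. It was 2.51-fold lower than control at day 1, 1.62-fold lower at day 3 and 1.07-fold lower at day 6, so that the gap to control was widest on the first treated day and narrowest on the last. At day 6 S100a1 was 2.34-fold higher than at day 1. The suffix of this probe set marks it as one whose probes can match other transcripts, and the other 2 probe sets of S100a1 were below the floor on the 4 arrays, so the signal may not be S100a1 alone.

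S100a13 had 16955 in control fat, 7966 at day 1, 10818 at day 3 and 13359 at day 6. The order of the arrays is that of S100a1, with control highest and day 1 lowest. S100a13 was 2.13-fold lower than control at day 1 (log2 change -1.09), 1.57-fold lower at day 3 and 1.27-fold lower at day 6. Of its 3 other probe sets, one was 1.94-fold lower and one 1.35-fold lower at day 1, and one was below the floor on both arrays. With the mean over the probe sets of a gene, S100a1 and S100a13 had day 1 log2 changes of -0.44 and -0.62 and neither passed 2-fold. Fgf1, whose export involves S100a13, was 2.66-fold lower than control at day 1 and 2.39-fold lower at day 3, with 514 at day 1 against 1366 in control fat. Il1a, the other export partner, reached 175 at day 1 and was otherwise below the floor.

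S100b was not measurable on these arrays. Its probe set had 91 in control fat, 83 at day 1, 119 at day 3 and 68 at day 6, below the floor each time, and no fold is given. Of 9 measured markers of Schwann cells and nerve, Mal, Cnp, Gap43 and Nefl were likewise below the floor on the 4 arrays. On any day, 0 of the 9 passed 2-fold in either direction. Of all genes, 5.71% were at least 2-fold higher and 6.35% lower at day 1. These shares were 2.88% and 2.47% at day 3, and 1.31% and 1.24% at day 6.

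**Figure D2:**
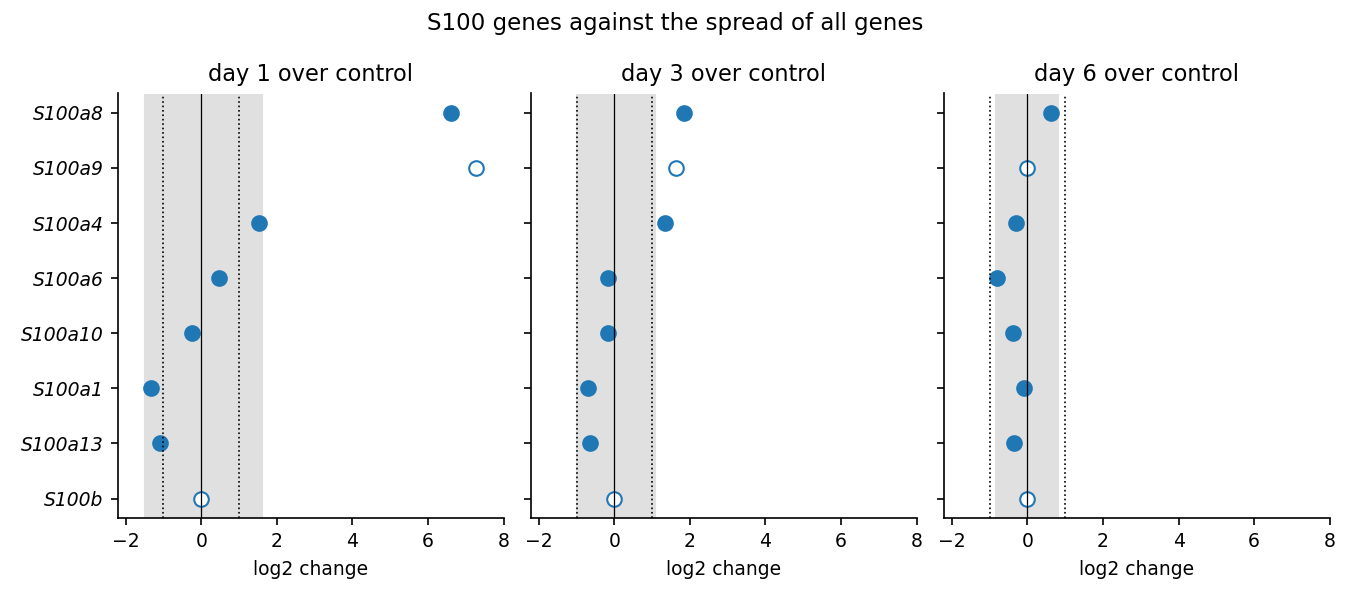
Log2 change against control (horizontal axis) of the 8 S100 genes at day 1, day 3 and day 6. Open circles have at least 1 of the 2 values at the floor, dotted lines mark 2-fold, and the grey band holds all but the outer tails of 8251 genes (-1.49 to 1.61 at day 1). At day 1 S100a8 and S100a9 lie far outside the band, at 6.60 and 7.27, and at day 6 the 8 genes lie within it.

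Counted over the family, 3 of the 8 members were at least 2-fold higher than control at day 1, where 5.71% of all genes were, and 2 were at least 2-fold lower, where 6.35% of all genes were. At day 3 the same 3 genes, S100a8, S100a9 and S100a4, were higher (2.88% of all genes) and 0 members were lower (2.47%). At day 6, 0 members were higher (1.31% of all genes) and 0 lower (1.24%). The 3 comparisons share the control array. The median log2 change of the members was 0.23 at day 1, -0.08 at day 3 and -0.20 at day 6, beside 0 for all genes each time. S100b, below the floor on each array, enters the members' medians as 0. Of the 8251 genes, 6269 exceeded the floor on some array, and the rest count as 0 and cannot pass 2-fold. Between day 6 and day 3, S100a4, S100a8 and S100a9 were at least 2-fold lower (2.01% of all genes) and 0 members higher (1.14%). Between day 6 and day 1, S100a4, S100a6, S100a8 and S100a9 were lower (6.77%) and S100a1 was higher (6.81%).

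Likeness of profile was also set beside the order of the genes on chromosome 3. S100a1 and S100a13 are neighbours, and the Euclidean distance between their 3 log2 changes against control was 0.34. S100a8 and S100a9 are neighbours as well, with a distance of 0.94, most of it from the day 1 and day 6 values set by the floor. Whether nearness and likeness go together cannot be read from this distance, because it is small between any genes that changed little. S100b, on chromosome 10 and below the floor on each array, was 0.48 from S100a10. S100a6 and S100a10 have S100a7a, S100a8, S100a9 and S100a11 between them and were 0.82 apart, closer than S100a8 and S100a9. S100a10 and S100a13, toward opposite ends of the row, were 0.99 apart. S100a4 and S100a6, which have S100a5 between them, were 1.92 apart. S100a14, beside S100a13, had log2 changes of -0.17, -0.03 and 0.08 on days 1, 3 and 6. The distances are a description over 3 floored changes that share 1 control array.

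**Figure D3:**
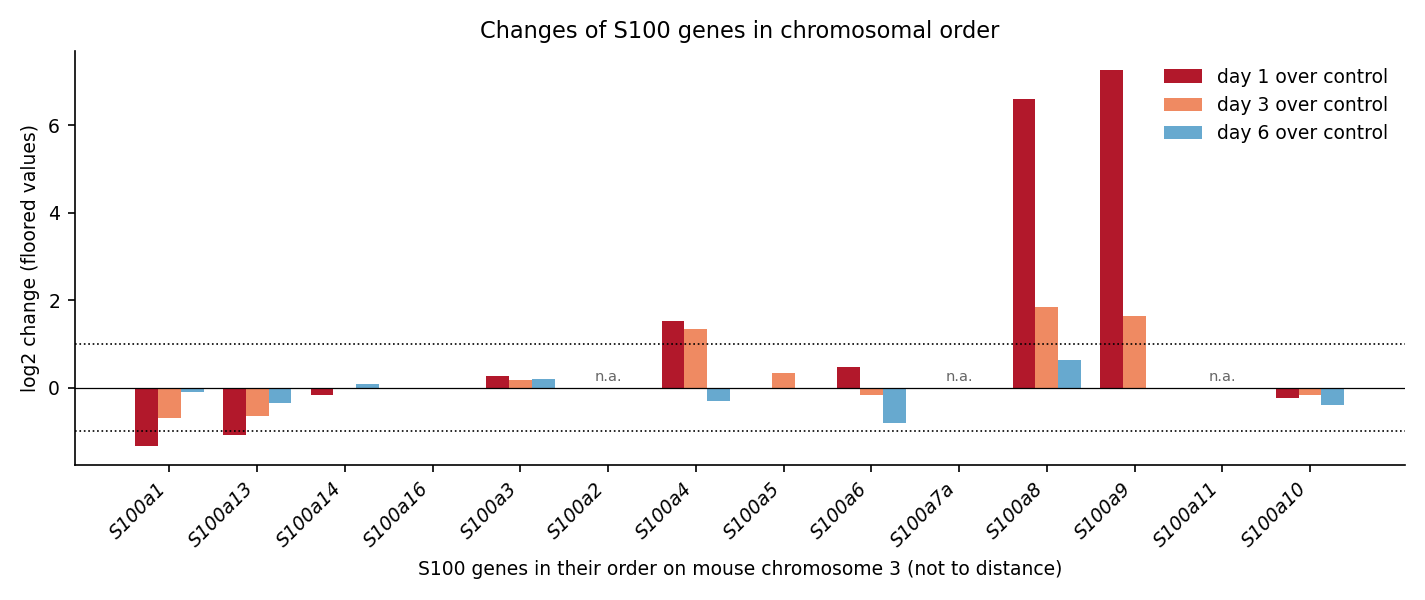
Log2 change against control (vertical axis, floored values) of S100 genes in their order on mouse chromosome 3, not spaced by distance, with bars for day 1, day 3 and day 6, dotted lines at 2-fold and n.a. for genes not analysed here. The bars of S100a8 and S100a9 reach 6.60 and 7.27 at day 1, and those of S100a1 and S100a13 at the other end of the row reach -1.33 and -1.09.

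The genes with profiles most like the members' were found by the same distance, on floored changes, among 5293 other genes whose brightest value was at least 2 times the floor. Nearest to S100a8 were Cxcl2, a chemokine that attracts neutrophils (distance 1.15), Clec4d, a lectin of myeloid cells (1.26), and Acod1, which makes itaconate in activated macrophages (1.62). Nearest to S100a9 were Cxcl2 (1.51), the related chemokine Cxcl1 (1.89) and Acod1 (1.93). Cxcl2 had 32 in control fat, 9604 at day 1, 440 at day 3 and 57 at day 6. It was chosen for this profile, and as the control values of Cxcl2 and S100a9 are both below the floor, the distance between them depends on where the floor is set. Nearest to S100a4 were the stromal chemokine Cxcl12 (0.23), the platelet-activating factor receptor Ptafr (0.34) and Wsb1 (0.37). Cxcl12 had 1281 in control fat, 4017 at day 1, 3108 at day 3 and 1176 at day 6. Nearest to S100a1 were the mitochondrial aldehyde dehydrogenase Aldh2 (0.04), Tcta (0.13) and the translation repressor Eif4ebp1 (0.15), and nearest to S100a13 were the cyclin Ccnc (0.06), Thap12 (0.06) and Dtd1 (0.07).

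The list of factors and cytokines that act on S100a8 and S100a9 had 11 measured genes, 1 of them the arginase Arg2, which is an enzyme rather than a regulator. Of the 11, 6 were at least 2-fold higher (5.71% of all genes) and 1 lower (6.35%) at day 1, and the median log2 change was 1.55 beside 0 for all genes. Without Arg2 the count was 5 higher and 1 lower of 10, and the median 1.27. The cytokine Il1b had 13108 at day 1 against 36 in control fat, at least 75.8-fold higher, and Il6 had 2377 against 25, at least 13.7-fold higher. Cebpb, a C/EBP transcription factor of myeloid and fat cells, was 4.29-fold higher, at 15215 against 3550. Arg2 had 1548 at day 1 against 84 in control fat (at least 8.95-fold higher), but a dimmer probe set of the gene read 68 and 84, both under the floor. The lower gene was Cebpa, a C/EBP factor of mature fat cells named after its values were seen, with 15877 at day 1 against 32043 in control fat. At day 3, 1 of the 11 was past 2-fold upward (2.88% of all genes) and 0 downward (2.47%). At day 6, 0 were past it upward (1.31%) or downward (1.24%). The exception at day 3 was Spi1, a myeloid transcription factor named here after its values were seen, with 1684 against 639.

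Of 13 measured receptors and binding partners, 2 were higher and 1 lower past 2-fold at day 1, where 5.71% of all genes were higher and 6.35% lower, and their median log2 change was 0.02. Cd14, the coreceptor of Tlr4, was 7.41-fold higher, with 17886 at day 1 against 2414 in control fat. Myd88, the adaptor of the same receptor, was 2.10-fold higher, at 1331 against 632, and Fgf1 was the lower one. Tlr4 was not analysed here, and Ager had 394 in control fat, 455 at day 1, 379 at day 3 and 446 at day 6.

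Of 9 measured annexins, Anxa8 alone passed 2-fold, at 1204 at day 1 against 552 in control fat (2.18-fold higher), and the list's median log2 change was -0.08. Anxa2, the annexin that S100a10 binds, had 35270 in control fat, 47848 at day 1, 37476 at day 3 and 31352 at day 6. On days 1, 3 and 6 its log2 changes were 0.44, 0.09 and -0.17, beside -0.24, -0.16 and -0.39 for S100a10. Among 23 measured calmodulin and other EF-hand genes, which share the calcium-binding fold of the S100 proteins, 1 was past 2-fold upward at day 1, the leukocyte actin-bundling gene Lcp1, with 12062 at day 1 against 1743 in control fat (6.92-fold higher). At day 3 Lcp1 was 4.07-fold higher and Nucb2, the precursor of nesfatin, 2.34-fold lower. Of all genes, 5.71% were past 2-fold upward at day 1, and 2.88% upward and 2.47% downward at day 3.

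Markers of the cells that carry S100 proteins moved on the same arrays. Of 18 measured neutrophil markers, 10 were at least 2-fold higher (5.71% of all genes) and 2 lower (6.35%) at day 1. The summed intensity of the 18 was 8574 in control fat, 41979 at day 1, 9261 at day 3 and 5242 at day 6. Lcn2, which fat cells also make, gave 4088, 11028, 4419 and 1167 of these sums in the same order. It is named after its values were seen. The list's median log2 change was 1.58 at day 1 and 0 on days 3 and 6. A marker below the floor on both arrays counts as 0, and 7 of the 18 exceeded the floor in control fat. The later medians of 0 are therefore set by the floor. At day 3, 1 was past 2-fold upward (2.88% of all genes) and 2 downward (2.47%). At day 6, 0 were upward (1.31%) and 3 downward (1.24%). Il1r2, the decoy receptor for interleukin-1, was at least 36.5-fold, Clec4d at least 44.1-fold, the histamine-forming enzyme Hdc at least 22.2-fold and the gelatinase Mmp9 12.6-fold higher at day 1 than in control fat. Another Mmp9 probe set was dim, with 222 at day 1 against 50 in control fat. Ly6g, a defining marker of mouse neutrophils named here after its values were seen, had -8 in control fat, 597 at day 1, 47 at day 3 and -11 at day 6. The granule genes Mpo, Ctsg and Ngp, which are transcribed in precursors in the marrow, were below the floor on the 4 arrays. The 2 lower markers at day 1 were Prtn3 and Elane, also granule proteases, which are named after their values were seen. Their calls at day 1 were lost under a 60th percentile floor. The part of neutrophils in the S100a8 and S100a9 values was not tested.

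Summed over the list, macrophage and monocyte markers were high on 2 arrays instead, although single genes differed in course. Their summed intensity over 21 measured genes was 40758 in control fat, 112902 at day 1, 103613 at day 3 and 53702 at day 6, and 11 were past 2-fold upward at day 1, 11 at day 3 and 2 at day 6, with 0 lower. Of all genes, 5.71% were past 2-fold upward and 6.35% downward at day 1. These shares were 2.88% and 2.47% at day 3, and 1.31% and 1.24% at day 6. Median log2 changes were 1.34, 1.13 and 0.25, beside 1.52, 1.35 and -0.30 for S100a4. Itgam, an integrin of myeloid cells, was 14.1-fold higher at day 1 and 4.60-fold higher at day 3, and Mpeg1, a pore-forming protein of macrophages, 8.51-fold and 6.46-fold. Cd14, which is on this list as well, was 7.41-fold higher at day 1, and the Fc receptor chain Fcer1g at least 7.27-fold, by a probe set whose partner for the same gene was below the floor on the 4 arrays. At day 3 Cd14 was 1.61-fold higher than control, and Fcer1g was below the floor, at 149 against 143. Fibroblasts are the other cells known for S100a4, and the list with their markers also holds those of mesothelium. It had 0 of 18 higher and 5 lower at day 1, with a median of -0.39. The 5 were Lum, Dpt and Thy1 and the mesothelial genes Krt19 and Upk3b. At day 3 the list had 0 higher and 3 lower, the mesothelial genes Krt19, Upk3b and Msln. Thy1 and Upk3b are named after their values were seen. Among the 18, the matrix genes Lum and Dpt were 3.74-fold and 2.40-fold lower at day 1, and the mesothelial genes Krt19 and Msln were 4.11-fold and 2.14-fold lower at day 3. Msln was within 2-fold at day 1, at 313 against 411. Markers within 2-fold at day 1 went both ways, such as Pdgfra (log2 change 0.53) and Dcn (-0.64), named after their values were seen. Lum was 1.29-fold higher than control at day 3. Krt19 has another probe set below the floor on the 4 arrays. Of the other leukocytes, 0 of 12 dendritic cell markers were higher at day 1 and 3 were lower (H2-Eb1, H2-Ab1 and H2-Aa), and 1 of 14 lymphocyte markers was higher, Cd79a. Of 10 endothelial markers 0 were higher and 2 lower (Tek and Pecam1). The calls of Cd79a, Tek and Pecam1 were lost under a 60th percentile floor. The part of either cell type in the S100a4 values was not tested.

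**Figure D4:**
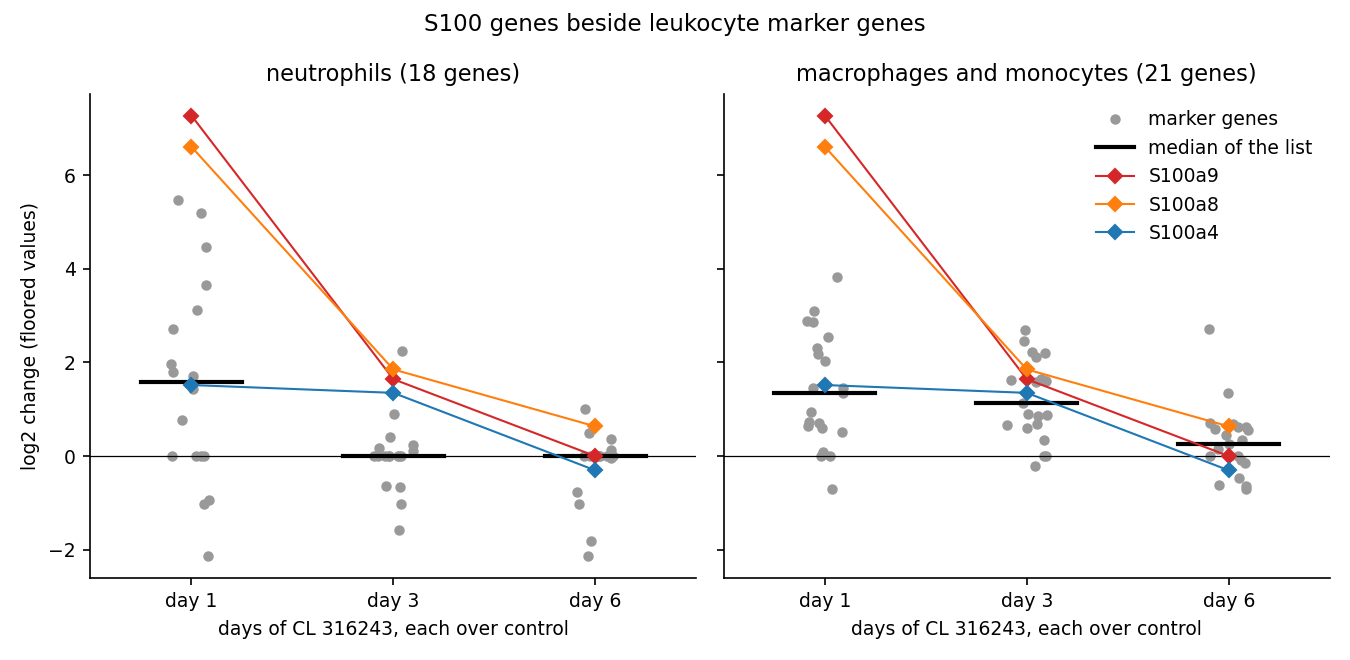
Log2 change against control (vertical axis, floored values) of 18 neutrophil and 21 macrophage and monocyte marker genes (grey points, black bar at the median) at day 1, day 3 and day 6, with S100a9, S100a8 and S100a4 as coloured lines. The neutrophil median is 1.58 at day 1 and 0 after it, where the 0 is set by the floor. The macrophage median is 1.34 at day 1, 1.13 at day 3 and 0.25 at day 6.

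Markers of fat cells and of the organ beside the fat pad also differed between the arrays. The 10 measured fat cell markers were above the floor on the 4 arrays, with a summed intensity of 223332 in control fat, 133949 at day 1, 200963 at day 3 and 237451 at day 6, and a median log2 change of -0.91 at day 1. The hormone gene Lep was 11.5-fold, the glucose transporter Slc2a4 6.25-fold, the adipogenic factor Pparg 3.74-fold and the hormone gene Adipoq 2.05-fold lower at day 1 than in control fat, and the 6 others were within 2-fold. Of all genes, 6.35% were at least 2-fold lower at day 1. Slc2a4 has another probe set below the floor on the 4 arrays. Another Lep probe set had 10217 in control fat, 8 at day 1, 614 at day 3 and 1412 at day 6. Its day 1 value is below the floor, so the size of the Lep change differs between the 2 probe sets. Among the treated days the order of the summed intensities, with day 1 lowest, is also that of S100a1 and S100a13. Of 8 measured markers of epididymis and testis, 0 were past 2-fold upward and 2 downward at day 1, and again at day 3. At day 6, 1 was upward and 0 downward. The 2 downward ones, the epididymal genes Lcn5 and Adam7, were high on the control and day 6 arrays and low on the other 2. Lcn5 had 3321 in control fat, 63 at day 1, 7 at day 3 and 8029 at day 6, and Adam7 had 2654, 200, 251 and 1846. Tnp1 of the same list, named after its values were seen, had 1258, 1278, 1234 and 1709 and did not share this course. Of 13 markers of skeletal muscle, a tissue known for S100a1, 0 were past 2-fold upward and 1 downward on each treated day. Of all genes, 5.71%, 2.88% and 1.31% were upward and 6.35%, 2.47% and 1.24% downward on days 1, 3 and 6. The downward marker was Myl1 at day 1 and Acta1 on days 3 and 6, and these 2 genes differed in course. Acta1 had 1492 in control fat, 2379 at day 1, 212 at day 3 and 168 at day 6. Myl1 had 3864 in control fat, 1090 at day 1, 3238 at day 3 and 3645 at day 6. Their highest arrays differ, day 1 for Acta1 and control for Myl1, and Ckm, Myh1, Tnnt3, Mb and Tnni2 were below the floor on the 4 arrays. The part of fat cells, epididymis or muscle in the S100 values was not tested.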

How the data were processed

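The deposited intensities, per the values themselves, are on a linear scale, and 12.2% to 12.4% of them per array are at or below 0. The sources used here do not give the software or normalization behind them, nor a genome build for them. The 4 distributions are nearly the same (medians 314 to 314.5), so every change is relative to a common distribution. Titles and descriptions write the compound's number differently, and that of the descriptions is used.

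Of 12488 probe sets, 66 were controls, 10833 had 1 gene symbol in the annotation and stood for 8251 genes, and 396 had several and were not named. Arrays were brought to the same trimmed mean (2nd to 98th percentile, factors of 0.9991 to 1.0005) in Python 3.11.15 with numpy 2.4.6, pandas 2.3.3 and matplotlib 3.10.9. The 40th percentile, 173 units, served as a floor for log2 ratios, and 59.9% to 60.2% of probe sets per array exceeded it. Printed intensities are scaled but not floored. Each gene is represented by its probe set with the highest mean. "At least" marks a fold against a value at the floor. The counting was tested on simulated data, with changes well past 2-fold in bright probe sets and less noise than the error between probe sets. That simulation does not cover calls near 2-fold or near the floor.

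With 1 array per group no test was run, and precision is limited by the number of arrays. The log2 error between probe sets of one gene, over 512 genes, was 0.28 at day 1, 0.22 at day 3 and 0.23 at day 6 against control. Here 3 errors amount to 1.79-fold, 1.59-fold and 1.60-fold. No variation between animals is in it. The members and gene lists were chosen with earlier results of these data known. All members are named, with up to 4 genes per list that differed most past 2-fold on any day, and the 3 nearest genes by distance for each member past 2-fold. Mpeg1 has another probe set below the floor on the 4 arrays. Of the 8 members, 7 had a window among the RefSeq promoters. Alternatives were other floors, scalings, choices of probe set and fold thresholds.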

Additional observations from a re-analysis of the deposited data

How the results depend on the processing

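The 8 genes gave 168 log2 changes against control under 7 alternatives, of which 149 moved by less than the error between probe sets and 19 by more, and 0 changed sign among those past 2-fold. Many of the 149 could not move, as several members have 1 probe set without a suffix, which no choice of probe set can change. With the mean over all probe sets of a gene, 7 moved, all of them in S100a1, S100a10 and S100a13, which have several probe sets. Without scaling, with a common median or with quantile normalization, 24 of 24 stayed within that error each time. The arrays were nearly on one scale from the start (factors of 0.9991 to 1.0005), so these settings could hardly move a value. Of the 5 members past 2-fold at day 1, 3 were left with the mean over all probe sets of a gene, which took out S100a1 and S100a13, and 2 at a threshold of 3-fold. The 3 at day 3 became 5 at 1.5-fold. The 0 at day 6 became 2 at 1.5-fold (S100a8 and S100a6) and, with a 25th percentile floor, 1, which was S100a9 with a log2 change of -1.04 between 2 values under the main floor. No share of all genes past 1.5-fold or 3-fold is given here, so the counts at those thresholds have no background beside them. The S100a9 log2 change at day 1 was 7.81 under a 25th percentile floor and 5.64 under a 60th percentile one, where that of S100a8 was 6.23. Leaving out probe sets with a suffix put S100a1 at 0, since its remaining probe set is below the floor. Over all genes, the 995 past 2-fold at day 1 became 1431 under the lower and 619 under the higher of these floors, the 442 at day 3 became 780 and 243, and the 210 at day 6 became 546 and 113. Of neutrophil markers past 2-fold upward, 1 at day 3 became 3 and 0 at day 6 became 4 under the lower floor. Of macrophage markers, 11 upward at day 3 became 7 under the higher floor, which also took to 0 the 1 lymphocyte marker upward, the 2 endothelial and 2 neutrophil markers downward at day 1, and Nucb2 at day 3. Leaving Arg2 off the regulators, chosen after seeing the data, gave 5 upward at day 1 in place of 6. The cause of these moves was not tested. No replicate could be left out and no paired analysis was possible because each group has 1 array. Signal near the floor limits S100a9 in control and at day 6, and S100b throughout.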

Other observations

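The probe set that carries the symbol of S100a11, a partner of annexin A1, together with those of a pseudogene and a predicted gene, had 19770 in control fat, 20482 at day 1, 16326 at day 3 and 14751 at day 6. It was 1.04-fold higher than control at day 1 and 1.34-fold lower at day 6, and its values cannot be assigned to one of these genes.

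The list of other S100 genes had 6 measured genes, and 0 passed 2-fold on any day. Among them is S100pbp, which encodes a binding partner and not an S100 protein. Of all genes, 5.71% were at least 2-fold higher and 6.35% lower at day 1. These shares were 2.88% and 2.47% at day 3, and 1.31% and 1.24% at day 6. S100a14 had 1340 in control fat, 1188 at day 1, 1308 at day 3 and 1415 at day 6, and S100a3 had 318, 385, 358 and 364. S100a16 and S100g were below the floor on the 4 arrays, and S100a5 exceeded it at day 3 alone, at 219. S100pbp, which is named for binding an S100 protein, had 214 in control fat, 141 at day 1, 190 at day 3 and 67 at day 6.

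Lcn2, a neutrophil granule protein that fat cells also make, was higher than control at day 1 and lower at day 6. It had 4088 in control fat, 11028 at day 1, 4419 at day 3 and 1167 at day 6, a log2 change of 1.43 at day 1 and -1.81 at day 6. It was named after its values were seen.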
